A study of Homo sapiens with 14 samples.

Results

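In CEM, a human T cell acute lymphoblastic leukemia line, cells given a short hairpin against JMJD3 were compared with cells given a control hairpin against Renilla luciferase, an enzyme that human cells do not make. The comparison covers every gene with at least 50 counts in either of the 2 deposited columns, which kept 16998 of the 55075 genes listed. Of these, 14852 had at least 50 counts in both columns, 275 only with the JMJD3 hairpin (shJMJD3) and 1871 only with the control hairpin (shRenilla). Both groups were infected with retroviruses that express the hairpin. The labels give 2 samples per group, and the deposited table holds 1 pooled count per gene and group, so no spread between samples and no test could be had. The shJMJD3 column totalled 70280185 counts and the shRenilla column 104190473. CEM cells with a hairpin against UTX (shUTX), also 2 samples in 1 column, held 70834792. The sources used here do not give the number or sequences of the hairpins, the time after infection or any selection of infected cells.

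JMJD3 is the protein of the gene KDM6B, and UTX that of KDM6A. Both are dioxygenases that need oxygen, iron and 2-oxoglutarate, and both take methyl groups off lysine 27 of histone H3, the mark that Polycomb repressive complex 2 writes on silenced genes. T cell acute lymphoblastic leukemia arises from immature T cells of the thymus, is often driven by NOTCH1 or by a misplaced transcription factor such as TAL1, and grows on glucose, amino acids and lipids that it takes up or makes in excess.

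Values are given as counts, as CPM (counts scaled to a common column total) and as log2 ratios of shJMJD3 to shRenilla, scaled by TMM, which centres the bulk of genes on 0. A log2 ratio of 1 is a 2-fold difference, and 2-fold is the size from which a gene is here called higher or lower. Intervals are exact binomial at 95% and cover counting error only. TMM set the ratios 0.27 above those scaled to column totals, so a positive log2 ratio printed below that size has the other sign when scaled to totals. In bulk RNA, fewer cells of a type and less RNA per cell cannot be told apart.

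The line showed its labelled cell type. All 10 T cell markers were measured, and they summed to 3231 CPM under shJMJD3, 3074 under shUTX and 3193 under shRenilla. The B cell list summed to 99.9, 85.4 and 90.8 CPM in the same order, with MS4A1 at 0 in all 3 columns and 6 of 10 members measured. Natural killer markers summed to 37.0, 23.0 and 38.9 CPM, erythroid markers to 19.1, 15.9 and 15.4, fibroblast or stromal markers to 8.84, 10.5 and 9.90, and epithelial markers to 5.12, 3.61 and 2.86. Myeloid markers summed to 6.59 CPM with shJMJD3 against 0.649 and 0.374, nearly all of it from ITGAM, an integrin chain, at 445 counts against 23 and 13. The part of other cells in the results below was not tested.

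The targeted gene was lower. KDM6B stood at 3670 counts (52.2 CPM) with shJMJD3, 14045 (198 CPM) with shUTX and 21500 (206 CPM) with shRenilla, so the shJMJD3 column lay below both others. That is 3.27-fold lower than with shRenilla, a log2 ratio of -1.71 (-1.76 to -1.66). The other demethylase of the pair, KDM6A, stood at 6096, 3646 and 14169 counts in the same order, with a log2 ratio of -0.38 for shJMJD3 and -1.36 for shUTX against shRenilla. Among the other histone demethylases, 3 of 20 measured (15.0%) were higher and 0 lower, beside 11.3% and 14.1% over all genes. The 3 that were higher were JMJD6 (log2 ratio 1.69), KDM4B (1.39) and KDM3A (1.35), all of which are also on the list of genes that respond to low oxygen. KDM4C, also on that list, was within 2-fold (0.80).

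Over all genes, 1916 (11.3%) stood at least 2-fold higher with shJMJD3 and 2399 (14.1%) at least 2-fold lower. Scaled to column totals, the genes at least 2-fold higher numbered 1285 and the genes at least 2-fold lower 3499. The median log2 ratio was -0.06, with a middle range of -0.59 to 0.47, and 53.7% of genes were within 1.5-fold. Among the 14852 genes with at least 50 counts in both columns, 1647 were higher and 1347 lower. The shares past 2-fold differed by level. Of genes whose mean was under 1 CPM, 12.2% were higher and 36.0% lower, while from 300 CPM up 20.6% were higher and 3.37% lower. The minimum of 50 counts is 0.711 CPM in the shJMJD3 column and 0.480 CPM in the deeper shRenilla column. It let in 1871 genes through shRenilla only and 275 through shJMJD3 only. The excess of lower genes under 1 CPM therefore cannot be told apart from the effect of this minimum. Of 487 long intergenic non-coding RNAs, 13.6% were higher and 29% lower, and of 12619 protein-coding genes, 11.4% and 11.6%. Set against the same shRenilla column, shUTX gave 136 genes (0.81%) at or above 2-fold and 206 (1.23%) as far below.

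**Figure D1:**
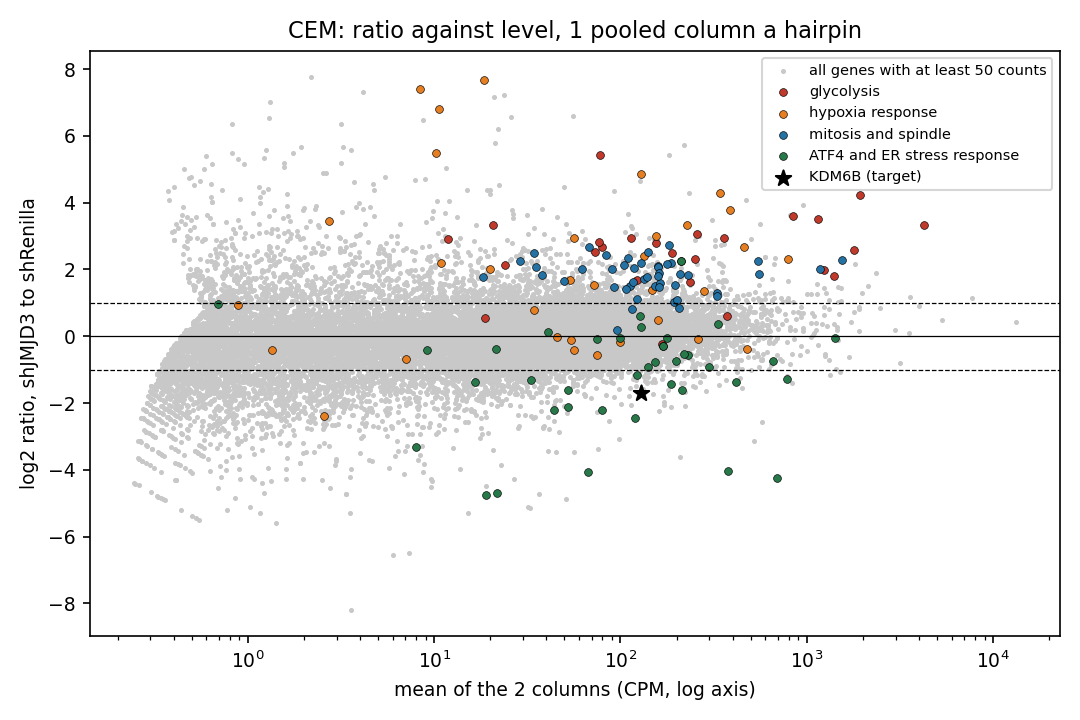
Log2 ratio of shJMJD3 to shRenilla in CEM (vertical axis, TMM-scaled) against the mean CPM of both columns (horizontal, log axis) for all genes with at least 50 counts in either column, 1 point a gene, with dashed lines at 2-fold. Glycolysis (red), hypoxia (orange) and mitosis genes (blue) lie mostly above the upper line, genes of the ATF4 and ER stress response (green) mostly below 0, and KDM6B (star) at -1.71.

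The genes with the largest ratios among protein-coding genes with at least 200 counts in a column were led by CA9, carbonic anhydrase IX, a surface enzyme that controls pH in cells short of oxygen. CA9 had 2590 counts with shJMJD3, 35 with shUTX and 20 with shRenilla, a log2 ratio of 7.68 (7.23 to 8.57). P4HA2, a collagen prolyl hydroxylase, had 1181, 94 and 10 counts (7.39), and AK4, a mitochondrial adenylate kinase, had 1476, 55 and 21 (6.81). All 3 were highest with shJMJD3 and between it and the control with shUTX. The ion channel TRPM5 (7.30), the dipeptidase DPEP1 (7.22), the adhesion protein SDK2 (6.59), the liprin PPFIA4 (6.56), the heat shock protein HSPA6 (6.47), the basement membrane proteoglycan HSPG2 (6.2) and the surrogate light chain IGLL1 (5.80) completed the 10. SDK2 was also high with shUTX, at 1173 counts against 7723 with shJMJD3 and 141 with shRenilla. P4HA2-AS1, which is antisense to P4HA2, had 115 counts with shJMJD3 and 0 with shRenilla, at least 68.6-fold higher against a floor of 3 counts per column. Whether strand was used in counting is not given, so reads of that pair cannot be told apart.

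At the other end stood KIF26B, a kinesin, with 6 counts under shJMJD3, 1354 under shUTX and 1240 under shRenilla, a log2 ratio of -6.55 (-8.30 to -5.73). IL31RA, a cytokine receptor chain, had 8, 1609 and 1521 counts (-6.50). Both were near the floor of detection with shJMJD3 only. PRF1, perforin, the pore-forming protein of cytotoxic cells, had 9, 481 and 725 counts (-5.28). TREML2 (-5.13), KLHDC7B (-5.10), the microtubule protein MAP1B (-4.88) and CHAC1 (-4.76), an enzyme that breaks down glutathione, were lower with 78 or more counts left. ANKRD34C, the germ cell helicase DDX4 and the matrix protein MATN4 each had 2 counts with shJMJD3, against 292, 238 and 211 with shRenilla, and their intervals reach from -9.40 to -4.49, -9.11 to -4.19 and -8.94 to -4.01. Of the protein-coding genes, 370 were at least 4-fold higher and 386 at least 4-fold lower than with shRenilla, and 283 and 308 were also at least 4-fold beyond the shUTX column. Among the latter, DNAJC12 and FIBCD1 had 0 counts with shJMJD3 against 114 and 110 with shRenilla, at least 21.2-fold and 20.5-fold lower.

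**Figure D2:**
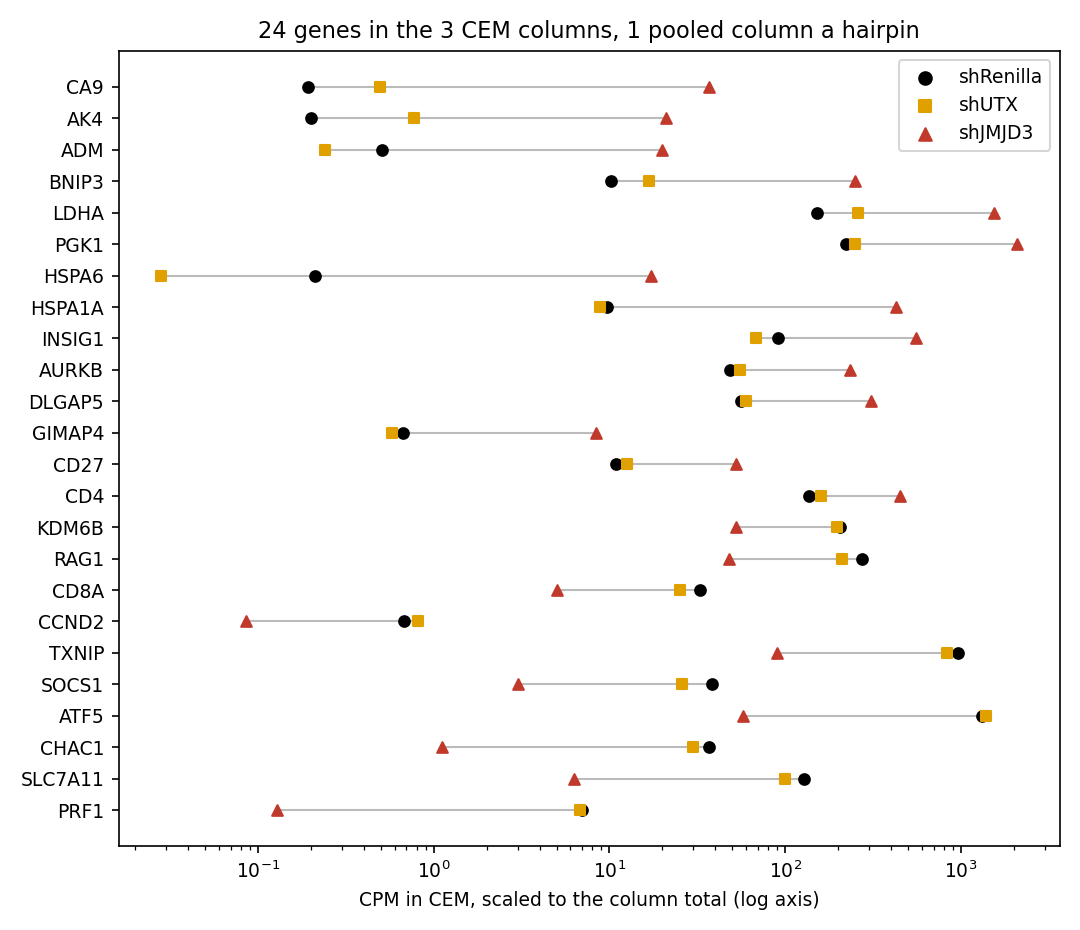
CPM (log axis, scaled to the column total, not to gene length) of 24 genes in the shRenilla (black circle), shUTX (yellow square) and shJMJD3 (red triangle) columns of CEM, 1 pooled column a hairpin with no error bar. For each gene shown the shJMJD3 triangle lies outside the range of the other pair of columns, from CA9 (36.9 against 0.494 and 0.192 CPM) to PRF1 (0.128 against 6.79 and 6.96).

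Glycolysis turns glucose into pyruvate and lactate, and in T cell leukemia it supplies both energy and carbon for growth. Of 25 measured genes of glucose uptake and glycolysis, 22 were at least 2-fold higher with shJMJD3 and 0 lower, with a median log2 ratio of 2.67 (2.63 against shUTX), beside -0.06 over all genes. Together these genes took 2.58% of all counts (2.577 to 2.584) with shJMJD3, 0.535% with shUTX and 0.466% (0.465 to 0.4676) with shRenilla. Genes that were higher ran from glucose transport to lactate output. The glucose transporter SLC2A1 stood at 452 CPM with shJMJD3, 73.4 with shUTX and 65.1 with shRenilla, a log2 ratio of 3.07. PFKFB4, which makes the activator of phosphofructokinase, stood at 151, 4.53 and 4.21 CPM (5.42), the isomerase GPI at 3643, 279 and 235 CPM (4.22), and phosphoglycerate kinase PGK1 at 2085, 250 and 222 CPM (3.50). The shJMJD3 column was the highest by a wide margin in each case, with shUTX and shRenilla close together.

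In the later steps the mutase PGAM1 (3.34) and enolase ENO1 (3.34) had larger ratios than pyruvate kinase PKM (1.98) and GAPDH (1.79). LDHA, which reduces pyruvate to lactate, stood at 1535 CPM with shJMJD3, 259 with shUTX and 151 with shRenilla (3.61), while its partner chain LDHB had a log2 ratio of 0.59. The lactate exporter SLC16A3 was higher (2.81) and the related carrier SLC16A1 was not (-0.24). Both pyruvate dehydrogenase kinases on the list, PDK1 (2.95) and PDK3 (2.13), which close the entry of pyruvate into mitochondria, were higher. The remaining gene under 2-fold was the muscle phosphofructokinase PFKM (0.55). Many glycolysis genes have processed pseudogenes, and how reads shared with these were counted is not given.

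Genes that respond to low oxygen outside glycolysis gave a median log2 ratio of 1.85, with 21 of 34 measured members higher and 1 lower. The response runs through HIF transcription factors, which EGLN dioxygenases mark for destruction by VHL when oxygen is present. The HIF genes themselves barely differed: HIF1A stood at 229, 306 and 293 CPM with shJMJD3, shUTX and shRenilla (-0.09), EPAS1 had a log2 ratio of -0.02, ARNT of -0.41 and VHL of -0.16. Only EGLN1 of the 8 regulators was past 2-fold (2.40), and EGLN3, with 73 counts against 174, had a ratio of -0.41. The 11 measured genes of pH, mitochondria and growth control were all higher. Among them the mitophagy receptor BNIP3 stood at 248, 16.7 and 10.2 CPM (4.87), the stress gene NDRG1 at 709, 62.1 and 62.5 (3.77), and BNIP3L, a second mitophagy receptor, at 771, 176 and 145 (2.69). Of secreted and surface proteins, the vasodilator peptide ADM had 1398, 17 and 53 counts (5.49) and ANGPTL4 had 348, 30 and 55 (3.44), while VEGFA, the vessel growth factor, had a ratio of 0.49 and LOXL2 one of -2.40.

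HIF binds a short core, ACGTG or GCGTG, and 2 promoters of members with large ratios are shown, chosen because they carry that core. The 250 bases before the transcript start are from RefSeq (GRCh38.p14), 5′ to 3′ on the strand of the gene, with the core on either strand in capitals.
CA9 (chr9:35673678-35673927, plus strand): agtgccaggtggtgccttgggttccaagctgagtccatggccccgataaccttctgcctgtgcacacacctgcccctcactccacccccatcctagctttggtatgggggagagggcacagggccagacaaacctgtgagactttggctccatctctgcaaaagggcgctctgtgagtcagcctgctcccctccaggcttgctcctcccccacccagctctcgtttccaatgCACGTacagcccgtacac
AK4 (chr1:65147302-65147551, plus strand): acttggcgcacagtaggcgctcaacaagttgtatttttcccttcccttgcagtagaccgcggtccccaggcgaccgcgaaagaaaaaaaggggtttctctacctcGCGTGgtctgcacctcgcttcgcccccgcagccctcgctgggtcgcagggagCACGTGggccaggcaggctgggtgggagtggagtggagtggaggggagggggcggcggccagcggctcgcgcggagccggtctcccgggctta
In the CA9 window the core lies 13 bases before the start, and in AK4, whose window is 1 of 4 in the table, 2 of the 3 matches overlap as a palindrome. The core was in 65.1% of 86 windows of the measured glycolysis and hypoxia members (49 of 59 had a window), against 54.5% of 14831 windows of measured protein-coding genes and 43.2% of all 35116. A match is only a run of letters, not a bound site.

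Genes of mitosis stood higher nearly throughout. Of 46 members, all measured, 43 lay at least 2-fold above the control and 0 below it, at a median log2 ratio of 1.85 and a range of 0.20 to 2.73. Their summed share of counts came to 1.42% under shJMJD3, 0.532% under shUTX and 0.482% under shRenilla. The kinases AURKB (233, 55.3 and 48.7 CPM, log2 ratio 2.53) and AURKA (136, 37.9 and 30.6 CPM, 2.42) build and check the spindle. DLGAP5, a spindle protein, had 21546, 4257 and 5812 counts (2.73), securin PTTG1 had 8062, 1139 and 2239 (2.69), and the centromere histone CENPA had 3967, 944 and 1255 (2.50). In each the shJMJD3 column alone was high. The members under 2-fold were PKMYT1 (0.20), an inhibitory kinase, CDCA5 (0.83) and KIF20B (0.84).

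Replication copies the genome before mitosis. Of 37 measured, 11 were higher and 0 lower, with a median of 0.47 over polymerase subunits, the MCM helicase and nucleotide enzymes. The members past 2-fold included ribonucleotide reductase RRM2 (1.65), thymidine kinase TK1 (1.49), the clamp loader subunit RFC5 (1.42) and the origin protein ORC1 (1.31), while the helicase subunit GINS3 had a ratio of -0.14. Of 16 measured cyclins, kinases and inhibitors of G1, 2 (12.5%) were higher and 2 (12.5%) lower, near the 11.3% and 14.1% over all genes. CDK inhibitors CDKN2C (1.56) and CDKN2D (1.12) were higher, CDKN1A was at 0.12, and the D cyclins CCND2 (6 counts against 71 with shRenilla, -2.47) and CCND1 (68 against 274, -1.16) were lower. CCND3, the D cyclin of T cells, had 44809 counts against 51607, a log2 ratio of 0.64. Replication-dependent histones, whose messages mostly lack a poly-A tail and depend on the RNA selection, had a median of -0.62, with 1 of 48 higher and 16 lower. Which sample was poly-A selected and which depleted of ribosomal RNA is not given, so RNA selection and hairpin cannot be told apart for them.

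Promoters of cell cycle genes are known for the CHR element TTTGAA. The windows of 2 mitosis genes that hold it and have large ratios are shown, in the same form as above.
DLGAP5 (chr14:55191586-55191835, minus strand): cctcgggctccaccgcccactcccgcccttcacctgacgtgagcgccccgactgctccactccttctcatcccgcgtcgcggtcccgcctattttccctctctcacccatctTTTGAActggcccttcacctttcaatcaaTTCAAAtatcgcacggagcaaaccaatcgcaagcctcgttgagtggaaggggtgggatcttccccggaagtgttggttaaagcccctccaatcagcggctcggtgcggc
CENPA (chr2:26785806-26786055, plus strand): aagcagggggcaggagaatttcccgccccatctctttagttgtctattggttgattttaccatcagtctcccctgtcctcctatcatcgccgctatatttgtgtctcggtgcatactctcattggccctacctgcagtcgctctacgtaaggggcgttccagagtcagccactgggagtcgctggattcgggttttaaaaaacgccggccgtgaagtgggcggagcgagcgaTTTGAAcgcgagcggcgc
The element (either strand) was in 54.3% of 46 windows of the mitosis list (39 of 46 members had a window), against 9.11% of measured protein-coding windows and 13.3% of all.

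Heat shock proteins are chaperones that HSF1 induces when proteins unfold. Of 18 measured, 11 were higher and 1 lower, with a median log2 ratio of 1.28. The largest ratios were those of HSPA6, HSPA1A, HSPA1B and the co-chaperone DNAJB1. HSPA6 had 1216 counts with shJMJD3, 2 with shUTX and 22 with shRenilla (6.47). HSPA1A had 30001, 622 and 1010 (5.73), HSPA1B 24952, 448 and 1038 (5.42) and DNAJB1 62198, 3823 and 6552 (4.09). Of these, only HSPA6 was near the floor of detection with shRenilla. HSPA1A and HSPA1B are near-identical copies, so the split of reads between them is uncertain. The constitutive HSPA8 had a ratio of 0.43, HSF1 itself of -0.18, and the mitochondrial HSPA9 was lower (-1.10). The windows of the leading pair are shown because they hold the paired units of a heat shock element, GAANNTTC or TTCNNGAA, each of which reads the same on both strands. In HSPA6, 2 of the 3 matches overlap.
HSPA6 (chr1:161524290-161524539, plus strand): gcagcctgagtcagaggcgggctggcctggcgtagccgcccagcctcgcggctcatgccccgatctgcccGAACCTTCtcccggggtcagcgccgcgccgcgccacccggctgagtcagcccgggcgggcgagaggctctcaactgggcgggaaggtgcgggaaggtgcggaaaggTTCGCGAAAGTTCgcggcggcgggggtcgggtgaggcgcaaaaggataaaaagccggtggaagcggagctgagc
HSPA1A (chr6:31815293-31815542, plus strand): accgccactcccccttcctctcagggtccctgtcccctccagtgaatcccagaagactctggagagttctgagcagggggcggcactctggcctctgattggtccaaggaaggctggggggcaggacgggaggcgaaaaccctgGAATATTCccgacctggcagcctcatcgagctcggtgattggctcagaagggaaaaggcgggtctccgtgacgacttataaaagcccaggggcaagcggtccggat
A pair of units was in 45.8% of 24 windows of the list (17 of 18 members had a window), against 9.08% of measured protein-coding windows and 11.6% of all.

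Cholesterol and fatty acid synthesis is controlled by SREBP factors, which are released from the ER when sterols are low. Of 38 measured genes, 21 were higher and 1 lower, with a median log2 ratio of 1.10 (1.18 against shUTX, 0.83 when scaled to column totals). Of 20 enzymes of cholesterol synthesis 12 were higher and 0 lower, from squalene synthase FDFT1 (2.72), MSMO1 (2.22) and HMGCS1 (2.11) down to TM7SF2 (-0.79). INSIG1, a brake that holds SREBP in the ER, had 38928 counts with shJMJD3, 4856 under shUTX and 9431 under shRenilla (2.88), and its relative INSIG2 was higher too (2.36). The SREBP genes SREBF2 (0.85) and SREBF1 (0.79) were not past 2-fold. Fatty acid genes were split: the desaturase SCD was higher (3.00), FASN had a ratio of -0.02, and the elongase ELOVL6 was lower (-1.32). The sterol element TCACNCCAC (either strand) was in 1 of 41 windows of this list, in 0 of the 22 windows of members that were higher, and in 0.89% of measured protein-coding windows.

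In the ATF4 and ER stress response, cells short of amino acids or with unfolded proteins induce amino acid uptake and synthesis. Of 39 measured genes, 18 were lower, 1 was higher and 20 were within 2-fold, with a median log2 ratio of -0.91 (-0.87 against shUTX). ATF4 itself had a ratio of -0.30. Its downstream factor ATF5 stood at 57.8 CPM with shJMJD3, 1389 under shUTX and 1324 under shRenilla (-4.25), and the pseudokinase TRIB3 at 36.4, 893 and 716 (-4.03). DDIT3, which encodes CHOP, had 1578, 5286 and 8606 counts (-1.61) and CEBPB had 1713, 8894 and 14043 (-2.20). In all 4 the shJMJD3 column alone was low.

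Of 8 amino acid transporters, 5 were lower and 0 higher, led by the glycine carrier SLC6A9 (1.32, 41.9 and 42.2 CPM, -4.70) and the cystine carrier SLC7A11 (6.30, 99.5 and 127 CPM, -4.06). SLC7A5 (-1.29) and SLC3A2 (-1.38), which pair to import leucine, were lower too. In amino acid synthesis CBS (-3.32), asparagine synthetase ASNS (-2.12) and PSAT1 (-1.42) were lower, while PHGDH, the first enzyme of serine synthesis, had a ratio of -0.57 and CTH of 0.98. Of 7 ER chaperones and ER proteins, HERPUD1 (-2.45) was past 2-fold, HSPA5 stood at -0.91 and HSP90B1 at 0.38. The 1 member that was higher, DDIT4 (2.25), is also on the hypoxia list. Cytosolic aminoacyl-tRNA synthetases, some of which ATF4 also controls, had a median of -0.49: IARS (-1.55), SARS (-1.48), MARS (-1.45), WARS (-1.38) and AARS (-1.20) were lower, and DARS (1.68) and QARS (1.25) higher. Of 16 mitochondrial synthetases measured, 0 were past 2-fold in either direction.

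ATF4 binds, with C/EBP partners, a composite site written TGATGNAA. The windows of 2 lower genes that hold it are shown.
CHAC1 (chr15:40953221-40953470, plus strand): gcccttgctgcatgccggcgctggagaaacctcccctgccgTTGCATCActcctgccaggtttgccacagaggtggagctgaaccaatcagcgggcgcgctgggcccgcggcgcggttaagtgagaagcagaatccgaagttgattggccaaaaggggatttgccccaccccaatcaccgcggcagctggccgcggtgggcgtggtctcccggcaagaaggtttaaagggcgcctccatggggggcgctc
HERPUD1 (chr16:56931892-56932141, plus strand): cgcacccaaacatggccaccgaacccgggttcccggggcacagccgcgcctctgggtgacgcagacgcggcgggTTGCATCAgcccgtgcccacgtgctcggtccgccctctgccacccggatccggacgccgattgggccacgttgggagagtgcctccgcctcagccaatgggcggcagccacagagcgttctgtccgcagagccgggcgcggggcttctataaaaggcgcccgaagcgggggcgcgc
In each the 8 letters in capitals are the site read from the other strand. It was in 11.1% of 54 windows of the list (35 of 39 members had a window), against 1.72% of measured protein-coding windows and 3.14% of all.

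**Figure D3:**
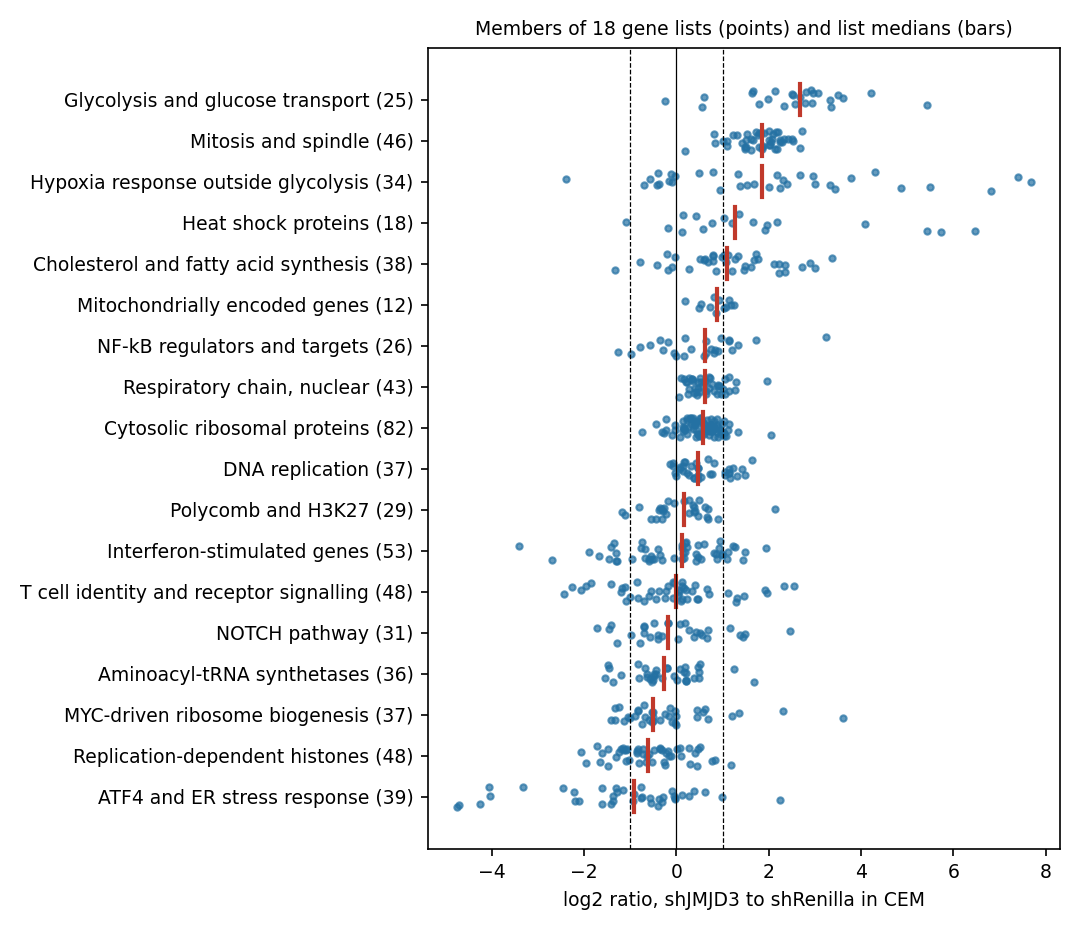
Log2 ratios of shJMJD3 to shRenilla in CEM for the measured members of 18 gene lists (points, jittered vertically; number measured in brackets) with the list median as a red bar and dashed lines at 2-fold. Medians run from 2.67 for glycolysis to -0.91 for the ATF4 and ER stress response, and most points of the mitosis and glycolysis lists lie past the upper line.

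T cell genes lay on both sides of 0. Of 48 measured genes of T cell identity and receptor signalling, 8 (16.7%) were higher and 11 (22.9%) lower, with a median of -0.02. Over all genes 11.3% were higher and 14.1% lower. The CD3 chains CD3E (0.03) and CD3G (0.11) were level and CD247, the zeta chain, was higher (1.30). CD4 stood at 448 CPM with shJMJD3, 160 under shUTX and 138 under shRenilla (1.97), and CD8A at 5.04, 25.1 and 32.7 (-2.42), so the co-receptors lay on opposite sides. CD27 (2.55) and CD5 (1.32), surface proteins of T cells, were higher. Of 12 thymocyte genes, 3 were higher and 6 lower. The recombinase pair RAG1 (47.7, 210 and 274 CPM, -2.25) and RAG2 (-2.07) and the lipid-presenting protein CD1A (-1.96) were lower, while the stem cell antigen CD34 (16.9, 7.37 and 4.05 CPM, 2.33), CD99 (1.92) and the terminal transferase DNTT (1.47), which adds bases during receptor rearrangement, were higher. PTCRA, the pre-T cell receptor chain, had 96 counts with shJMJD3, 89 under shUTX and 462 under shRenilla, and was thus low with either hairpin. Over the 12 thymocyte genes the median for shJMJD3 was -0.93 against shRenilla. Against shUTX it was 0.03, with 2 higher and 3 lower. For shUTX against shRenilla the median was -0.28, with 0 higher and 3 lower. ZBTB7B, a factor of CD4 lineage choice, had 105, 270 and 679 counts (-1.84), and the kinase ZAP70 was lower (-1.17).

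The NOTCH pathway had 5 of 31 measured members (16.1%) higher and 4 (12.9%) lower, near the 11.3% and 14.1% over all genes. NOTCH1 stood at 284, 418 and 453 CPM (-0.40) and NOTCH3 at 55.8, 37.8 and 42.1 (0.68). The target genes HES1 (222, 94.9 and 98.6 CPM, 1.44) and DTX1 (35.7, 13.7 and 15.3 CPM, 1.49) were higher, as was RBPJ (1.38), the DNA-binding partner of NOTCH. PSEN2 (-1.72), NOTCH4 (-1.45), PTCRA (-1.41) and MAML3 (-1.28) were lower. The 12 measured targets had a median of -0.29, with 4 higher and 1 lower. MYC (-0.18), IL7R (-0.79), TCF7 (-0.71) and BCL6 (-0.70) were not past 2-fold. Of 12 measured oncogenic transcription factors of this leukemia, ERG (1.89), LYL1 (1.52) and TAL1 (83.2, 36.9 and 36.4 CPM, 1.46) were higher, LMO2 had a ratio of 0.68, and TLX1, at 2 counts against 56, was lower with an interval of -7.05 to -2.05.

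Chromatin regulators mostly stayed within 2-fold. In the Polycomb list 1 of 29 was higher and 2 lower: PHF19, which recruits the H3K27 methyltransferase, stood at 228, 59.1 and 62.6 CPM (2.14), the readers CBX7 (-1.18) and CBX6 (-1.12) were lower, and the methyltransferase EZH2 had a ratio of 0.28. Of 16 genes of COMPASS, the H3K4 methyltransferases, SETD1B (-1.78) was past 2-fold. The DNA demethylase TET1 (213, 78.7 and 70.4 CPM, 1.87), the methyltransferase DNMT3B (1.71) and the 2-oxoglutarate producer IDH2 (1.27) were the 3 of 10 DNA methylation genes that were higher. HOX genes were little expressed, with 7 of 39 measured. HOXA10 and HOXB9 each had 2 counts with shJMJD3 against 142 and 174, with intervals of -8.37 to -3.43 and -8.66 to -3.73, and HOXA13 had 67 against 2 (4.0 to 8.98).

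Immune and survival genes were mixed. Of 53 interferon-stimulated genes, 7 (13.2%) were higher and 10 (18.9%) lower, near the 11.3% and 14.1% over all genes. Of 29 antiviral effectors, 7 were lower, with IFIT2 (-2.70) and IFIT3 (-1.89, and -0.92 against shUTX) among them, 2 were higher, IFITM2 (1.22) and OAS3 (1.12), and 20 were within 2-fold. Antigen presentation genes had a median of 0.88, with HLA-B (1.48), B2M (1.44) and HLA-F (1.94) among the 5 of 13 that were higher and 0 lower. SOCS1, a brake on cytokine signalling, stood at 3.00, 25.8 and 38.5 CPM (-3.40), and STAT4 had 7 counts against 153 (-3.37). Of 9 measured chemokine receptors CCR8 (2.41), CCR4 (2.11) and CCR7 (1.73) were higher, and CCR9 (-2.28), a thymus and gut homing receptor, and CXCR3 (-1.88) lower. In the NF-kB list 6 of 26 were higher and 1 lower, with TRAF1 at 3.24 and the inhibitor CYLD at -1.26. Of 32 measured apoptosis regulators, 3 (9.38%) were higher and 5 (15.6%) lower, shares near those over all genes. The pro-death genes BBC3 (-2.67), BMF (-2.66) and TNFRSF10B (-2.39), a TRAIL receptor, were lower, while TNFSF10, which encodes TRAIL itself, was higher (1.45) and the pro-death genes BID (0.96) and FAS (0.81) were within 2-fold. The decoy receptor TNFRSF10C had 0 counts against 71, at least 13.2-fold lower. The survival protein BIRC5 (2.03), which is also a mitosis gene, was higher.

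Genes of the translation and respiration machinery had medians within 2-fold. Cytosolic ribosomal proteins had a median log2 ratio of 0.59, with 9 of 82 (11.0%) higher. Nuclear respiratory chain genes had 0.62 (8 of 43, 18.6%) and mitochondrially encoded genes 0.88 (5 of 12, 41.7%). Mitochondrial ribosomal proteins had 0.32 (5 of 76, 6.58%). In each of these lists 0 were lower, beside 11.3% higher and 14.1% lower over all genes. The higher share was thus near that over all genes for cytosolic ribosomal proteins and below it for mitochondrial ones. Nucleolar and growth genes driven by MYC had a median of -0.50. Of 37, 4 (10.8%) were higher and 6 (16.2%) lower, near the 11.3% and 14.1% over all genes. Those that were higher are LDHA and TFRC, which are also hypoxia or glycolysis genes, and the mitochondrial chaperones HSPE1 and HSPD1, and those lower include the polymerase I factor UBTF (-1.41), MYBBP1A (-1.33) and spermidine synthase SRM (-1.33).

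CUTLL1, a second T cell leukemia line, shares no column with CEM. Its shJMJD3 column (3 samples) was set against the larger of 2 deposited shRenilla columns, and there 727 genes (3.68%) stood 2-fold or more above and 460 (2.33%) as far below. Against the smaller column the numbers were 2699 (14.5%) and 182 (0.979%). KDM6B had a log2 ratio of -0.64. Of the genes higher in CEM, 1684 were measured in CUTLL1, and 123 of these (7.30%) were higher there and 14 lower. Of the genes lower in CEM, 74 of 2035 (3.64%) were lower and 84 were higher. Of all 15882 genes measured in both lines, 455 were higher and 177 lower in CUTLL1. Read the other way, 27% of the 455 genes higher in CUTLL1 were higher in CEM, and 41.8% of the 177 lower were lower. Across 15882 genes the log2 ratios of the lines had a Pearson r of 0.215 and a Spearman rho of 0.271 (Pearson r 0.094 with the smaller control column), given as a description, since genes are not replicates.

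For the 6 lists that follow, the medians in CUTLL1 lay closer to 0. They were 0.39 for glycolysis, 0.38 for hypoxia, 0.20 for mitosis, -0.03 for heat shock proteins, -0.02 for cholesterol and fatty acid synthesis and 0.07 for the ATF4 list, against 2.67, 1.85, 1.85, 1.28, 1.10 and -0.91 in CEM. With the smaller control column the medians were 0.20, 0.05, 0.02, 0.11, -0.03 and -0.18, while mitochondrially encoded genes stood at 1.14 and cytosolic ribosomal proteins at 1.05, against -0.19 and 0.17 with the larger column. The difference between the lines was not tested, since each has 1 column per hairpin. The shUTX medians in CEM were 0.14, 0.03, 0.19, -0.14, -0.01 and -0.04 against the same shRenilla column that shJMJD3 was set against.

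**Figure D4:**
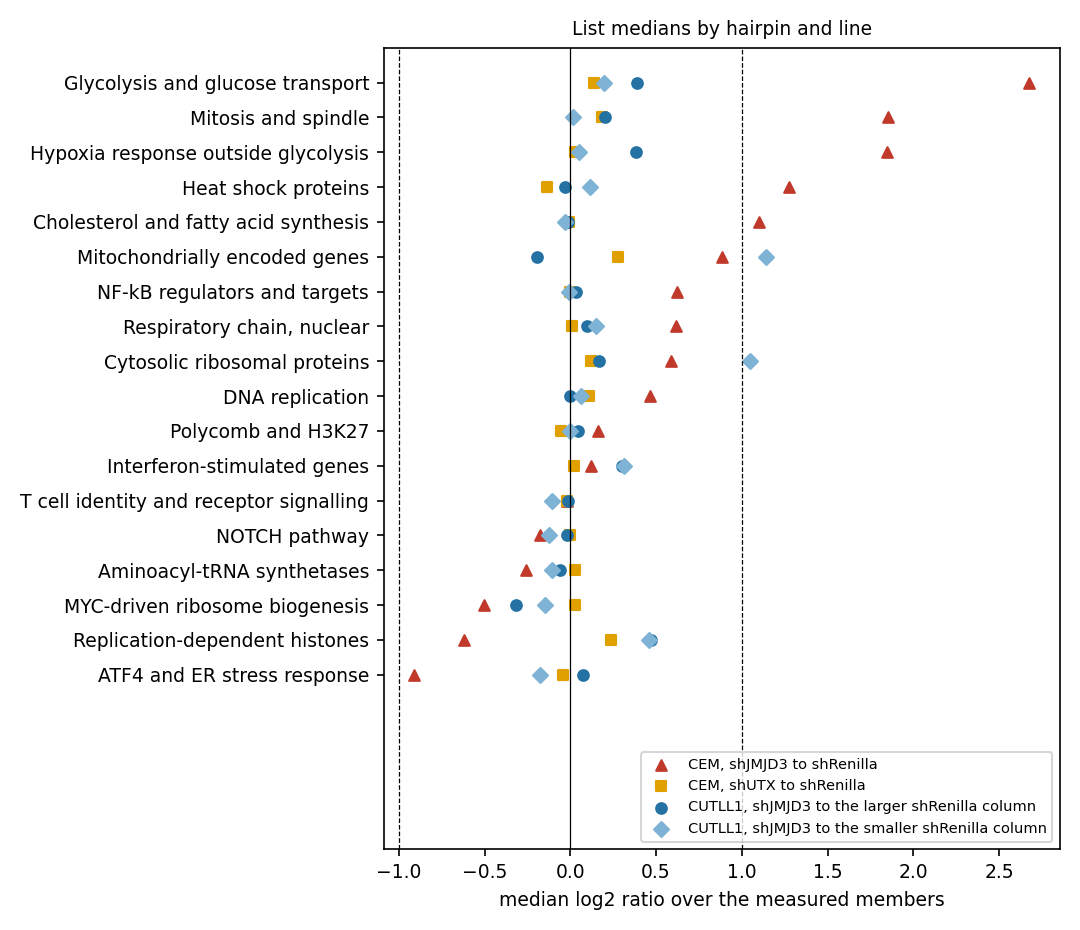
Median log2 ratio over the measured members of 18 gene lists for shJMJD3 to shRenilla in CEM (red triangles), shUTX to shRenilla in CEM (yellow squares) and shJMJD3 to the larger (dark blue circles) or smaller (light blue diamonds) shRenilla column in CUTLL1, with dashed lines at 2-fold. Glycolysis reaches 2.67 in CEM shJMJD3 and stays at or below 0.39 in the other 3 comparisons.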

How the data were processed

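RNA sequencing of the CEM line gave 2 samples per hairpin. Per the labels' protocols, RNA was enriched for poly-A or depleted of ribosomal RNA, made into strand-marking dUTP libraries and read as 50-nt single reads. Per the submitters' processing notes, CASAVA, TopHat and the hg19 build were used. The sources used here do not name the counting program, the annotation or the strand setting. The deposited values used are raw counts, which the authors pooled to 1 per gene, hairpin and line, and their deposited fold changes were not used. Log2 ratios were computed from the counts with TMM factors of the 2 columns (edgeR 4.0.16) and a prior count of 2. They cover genes with at least 50 counts in either column. The formulas for the ratio and its interval were run on simulated counts with counting error only, scaled to column totals. That run therefore covers neither TMM scaling nor spread between samples. The edgeR package served for scaling only, and no test across genes was run, since each group has 1 value. Intervals are exact binomial (SciPy 1.17.1). Gene classes are from GENCODE 29 (16085 of 16998 genes matched), promoter windows from RefSeq GRCh38.p14, a later build than that of the counts.

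Genes named are the 10 highest and 10 lowest protein-coding genes with at least 200 counts in a column, up to 8 list members furthest in the direction of the list median and 3 in the other, all members of lists with at most 12 measured, a fixed panel, and 5 each furthest beyond both other CEM columns at 4-fold. Members singled out beyond this rule were chosen after their values were seen. The members and lists were chosen with earlier results of these data known. Alternatives changed the scaling, prior count, minimum count, fold, gene class and control column.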

Additional observations from a re-analysis of the deposited data

Results flagged for a closer look

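Against the larger CUTLL1 control column, 14 genes higher in CEM were lower in CUTLL1 and 84 lower in CEM were higher there. Among the genes that the naming rule covers, in 7 the ratio of shJMJD3 to shRenilla was at least 2-fold in CEM and at least 2-fold in the opposite direction in CUTLL1. Each line has 1 pooled column per hairpin, so the difference was not tested. PRF1 had a log2 ratio of -5.28 in CEM (9 counts against 725) and 1.83 in CUTLL1 (596 against 272). TLX1 had -3.25 in CEM (2 counts against 56) and 2.11 in CUTLL1 (58 against 20). The thymus homing receptor CCR9 had -2.28 in CEM, where 1528 counts stood against 13285, and 1.01 in CUTLL1, which became 0.87 with the smaller control column. IFIT3, an interferon-stimulated gene, had -1.89 in CEM and 2.74 in CUTLL1. The cyclin CCND1 had -1.16 in CEM and 3.51 in CUTLL1 (420 counts against 58). The histone gene HIST1H3E had -1.73 and 1.21, and the insulin receptor INSR had -1.06 and 1.19, the latter 0.77 with the smaller control column.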

How the results depend on the processing

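With 1 pooled column per hairpin, no replicate could be left out. No paired analysis was possible because the deposited columns pool the numbered samples of a group. The KDM6B log2 ratio was -1.98 when scaled to column totals, outside its counting interval, and between -1.71 and -1.67 with the other scalings, priors and the shUTX control. With column totals the genes at least 2-fold higher numbered 1285 and the genes at least 2-fold lower 3499. Protein-coding genes alone gave 1463 lower, a minimum of 10 counts 3815 and one of 200 counts 1556. With any count allowed, 4304 were higher and 5312 lower. At 1.5-fold the numbers were 3578 and 4297, and at 4-fold 527 and 620. Of 241 named genes past 2-fold, 201 stayed so with column totals and 211 against shUTX. The log2 ratio of PTCRA turned from -1.41 to 0.35 against shUTX. Of 7 lists with a median past 2-fold, 5 stayed so with column totals. There cholesterol and fatty acid synthesis stood at 0.83, and the B cell markers at 0.83 against 1.10 with TMM. The 7 include the B cell markers (6 measured) and the myeloid markers (1 measured, ITGAM). With any count allowed the medians of these marker lists were 0.865 and 0.927. With a minimum of 200 counts the B cell median was 0.857. Genes under about 1 CPM rest on few counts.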

Other observations

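In all, 8 gene families were looked up after their values were seen, and no test was run on them. Some members were already on the lists, such as GIMAP5, PSMB9 and the solute carriers SLC2A1 and SLC7A11. The counts for such families thus partly repeat those above. All 7 GIMAP genes, which encode GTPases of lymphocytes, were measured and 6 were at least 2-fold higher with shJMJD3, with a median log2 ratio of 2.47 (0.09 with shUTX). GIMAP4 had 592 counts with shJMJD3, 41 under shUTX and 70 under shRenilla (3.87), and GIMAP7 had 4802, 848 and 1018 (3.07). In CUTLL1 the family median was -0.43. Metallothioneins, which bind zinc and copper, were measured for 6 genes, and all 6 were higher, with a median of 2.54. MT1G had 632, 35 and 45 counts (4.57) and MT2A 3326, 870 and 1072 (2.47), although reads of these similar genes may be shared.

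TXNIP, which restrains glucose uptake, stood at 89.6 CPM with shJMJD3, 837 under shUTX and 957 under shRenilla, a log2 ratio of -3.15. Its relative ARRDC4 had 56, 1193 and 1727 counts (-4.07), ARRDC5 was lower as well (-4.23), and ARRDC1, ARRDC2 and ARRDC3 were within 2-fold. Of 13 measured tubulins, which form the spindle, 7 were higher and 0 lower, among them TUBA1B (1.68) and TUBB (1.55). Of 432 measured zinc finger genes named ZNF, 14 (3.24%) were higher and 43 (9.95%) lower, with a median of -0.32. Over all genes the shares were 11.3% and 14.1%. Of 202 measured solute carriers, 21 (10.4%) were higher and 45 (22.3%) lower, with a median of -0.22. Proteasome subunits (2 of 38 higher, 1 lower, median 0.24) and eIF3 subunits (0 of 13 in either direction, median 0.30) were nearly all within 2-fold.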
